A study of Mus musculus with 8 samples.

Results

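Gas5 and 6 other noncoding host genes of small nucleolar RNAs (snoRNAs), Snhg1, Snhg3, Snhg5, Snhg6, Snhg8 and Snhg12, were followed probe set by probe set in Foxa2 null and wild-type mouse embryos at E7.5. All probe sets annotated to any of these 7 genes were taken from both array platforms, 25 probe sets of 57459, and the 7 genes are among 19471 genes that the annotation names. The U74Av2 array carried 7 of the probe sets for 4 of the genes, and the MOE430v2 array carried 18 for all 7 genes. The genes were chosen with their Foxa2 null minus wild-type differences already known, so those differences are given as a description, with no test of any of the 7 genes.

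A snoRNA host gene makes a long transcript whose introns are cut into snoRNAs, the guide RNAs that direct methylation or pseudouridylation of ribosomal and other RNAs. In many hosts of this class the spliced exons code for no conserved protein, and the spliced RNA is removed by nonsense-mediated decay as it is translated. Host transcripts often start in a run of pyrimidines, the terminal oligopyrimidine (TOP) tract shared with ribosomal protein mRNAs, which ties their translation to growth. Gas5 (growth arrest specific 5) took its name from a screen for RNAs that accumulate when mouse fibroblasts stop dividing, and in human cells its RNA has been described as a decoy for the glucocorticoid receptor.

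RNA came from the embryo proper of pooled embryos, with the visceral endoderm kept and the extraembryonic regions dissected away. The Foxa2 null pools held 53 and 48 embryos that were made by tetraploid complementation from Foxa2 null embryonic stem cells, so that the wild-type tetraploid host supplied the extraembryonic tissue and the visceral endoderm. The wild-type pools held 53 and 50 ICR embryos from timed matings, and all pools ranged over several gastrulation stages. The labels give ICR for the mutants on MOE430v2 as well and no strain for them on U74Av2. Genotype and embryo origin cannot be told apart in this design. The paper states that Foxa2 null epiblasts do not displace their visceral endoderm, whereas wild-type epiblasts do. By its account, true increases in Foxa2 null and increases from more visceral endoderm cannot be told apart, which also applies to the hosts with higher signal below. Each of the 4 extracts was hybridized to 1 array of each platform, so both platforms rest on the same 2 pools per genotype and are not independent of each other. Signals are on the log2 scale, and each difference is Foxa2 null minus wild-type with the standard error (SE) of the fit across all probe sets. In pooled tissue, fewer cells that hold a transcript and less of it per cell cannot be told apart.

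In the RefSeq annotation of GRCm38.p6, Gas5 lies at chr1:161034601-161038539 and holds 8 snoRNA genes. Snhg1 (chr19:8723487-8726326, the host of Snord22) also holds 8, Snhg12 (chr4:132308678-132311024) holds 4, Snhg3 (chr4:132351933-132353686, the host of Snora73a and Snora73b) and Snhg5 (chr9:88521052-88522897) hold 2 each, and Snhg6 (chr1:9942025-9944118, Snord87) and Snhg8 (chr3:123507552-123508336, Snora24) hold 1 each. All are annotated as long noncoding RNAs. Gas5 has 8 RefSeq transcripts and each of the others has 1.

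The start regions of the hosts are shown because the TOP tract is the feature this gene class is best known for. RefSeq promoter windows were matched for 6 of the 7 genes, with 2 windows for Gas5; Snhg6 had no entry. Each line below runs from 40 bases before the annotated start, 5′ to 3′ on the gene's strand, and covers 70 bases of GRCm38.p6. Capitals mark a TATA-like word (TATANA or TATTTA) and an uninterrupted run of 5 or more C or T that begins with C no more than 5 bases from the annotated start.
Gas5 (chr1:161035126-161035195, plus strand): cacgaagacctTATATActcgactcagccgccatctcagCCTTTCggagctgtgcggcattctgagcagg
Gas5, upstream window (chr1:161034561-161034630, plus strand): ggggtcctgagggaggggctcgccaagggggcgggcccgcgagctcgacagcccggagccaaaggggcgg
Snhg1 (chr19:8723447-8723516, plus strand): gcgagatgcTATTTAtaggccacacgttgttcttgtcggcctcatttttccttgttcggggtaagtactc
Snhg12 (chr4:132308638-132308707, plus strand): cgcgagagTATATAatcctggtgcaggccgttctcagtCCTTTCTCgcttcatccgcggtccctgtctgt
Snhg8 (chr3:123508307-123508376, minus strand): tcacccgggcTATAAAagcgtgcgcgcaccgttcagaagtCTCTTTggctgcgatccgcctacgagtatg
Snhg5 (chr9:88522868-88522937, minus strand): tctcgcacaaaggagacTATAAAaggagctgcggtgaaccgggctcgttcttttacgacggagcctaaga
Snhg3 (chr4:132353657-132353726, minus strand): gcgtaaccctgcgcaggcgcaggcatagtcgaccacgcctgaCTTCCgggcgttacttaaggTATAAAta

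A pyrimidine run at the start was found in 4 of the 7 windows, those of Gas5, Snhg12, Snhg8 and Snhg3, against 18.3% of all 32851 promoter windows. The longest run was that of Snhg12, with 8 bases. Gas5 and Snhg8 had runs of 6 and Snhg3 had a run of 5. A TATA-like word on the sense strand was found in 6 of the 7 windows, against 6.17% of all windows, and both features stood together in 4, against 1.03%. Counting the annotated start as position 0, the TATA-like word began at -29 in Gas5, -31 in Snhg1, -32 in Snhg12, -30 in Snhg8 and -23 in Snhg5, whereas in Snhg3 it lay downstream of the start, at 22. The upstream Gas5 window held neither feature. Of 15 windows of other noncoding hosts, 33.3% had the run and 13.3% a TATA-like word, and of 28 windows of protein-coding hosts, 25% and 17.9% did. The words TGTTTAC and TATTTAC, letters of forkhead-type sites, were searched on both strands of the full 300-base windows, and none of the 7 held either, against 6.54% of all windows. These are matches of letters and not measured sites.

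Gas5 was lower in Foxa2 null embryos on all 3 of its U74Av2 probe sets, by very different amounts. On 98531_g_at the Gas5 signal was 8.68 and 8.80 in the Foxa2 null pools, against 10.62 and 10.72 in the wild-type pools. The groups stood 1.82 apart at their nearest arrays, while the pools within a genotype differed by 0.11 in Foxa2 null and 0.10 in wild-type. The difference of -1.93 (SE 0.14) is 3.81-fold lower, and it ranked 17 from the lowest among 8695 tested probe sets on that array. Whether this set, which carries the suffix g, also binds other transcripts was not examined. On 98530_at, Gas5 was at 7.0 and 6.22 in Foxa2 null and 7.38 and 7.69 in wild-type, a difference of -0.92 (SE 0.28). Here the Foxa2 null pools differed from each other by 0.78, more than the gap of 0.38 between the genotypes. The probe set 101885_at read 3.99 and 3.82 in Foxa2 null and 4.34 and 4.06 in wild-type, and its difference of -0.30 was smaller than its SE of 0.50.

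**Figure D1:**
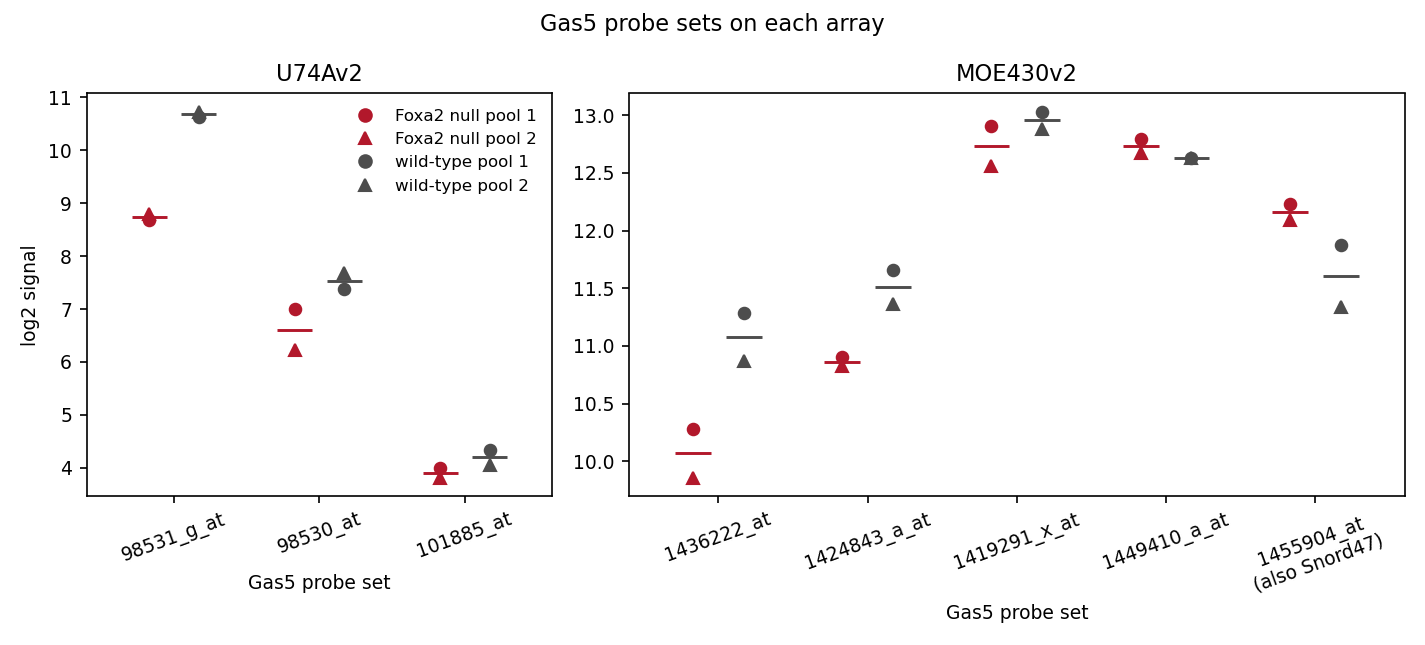
Signal of the 8 Gas5 probe sets (log2, y axis) on each array, U74Av2 on the left and MOE430v2 on the right, with Foxa2 null pools in red to the left of wild-type pools in grey and short lines at the mean of 2 pools. The groups lie furthest apart on 98531_g_at, and on MOE430v2 the order of the groups turns round between 1436222_at at the left and 1455904_at at the right.

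On MOE430v2 the 5 Gas5 probe sets did not share a direction. The most negative was 1436222_at, with 10.28 and 9.86 in Foxa2 null and 11.29 and 10.87 in wild-type, a difference of -1.01 (SE 0.19), or 2.01-fold lower. It was followed by 1424843_a_at, a set for alternative transcripts of Gas5, with 10.90 and 10.82 in Foxa2 null and 11.66 and 11.36 in wild-type, a difference of -0.65 (SE 0.13). In both of these the Foxa2 null arrays lay below both wild-type arrays, as they did in 21.8% of all tested sets on MOE430v2. On 1419291_x_at, which by its suffix may bind unrelated transcripts, the groups overlapped, at 12.91 and 12.56 in Foxa2 null and 13.03 and 12.88 in wild-type (difference -0.22, SE 0.12). The set 1449410_a_at, by its suffix also one for alternative transcripts, read 12.79 and 12.67 in Foxa2 null and 12.63 in both wild-type pools, a difference of 0.10 (SE 0.09). The last, 1455904_at, is annotated to Snord47 and Gas5 together, and was higher in Foxa2 null, at 12.23 and 12.09, than in wild-type, at 11.88 and 11.34 (difference 0.55, SE 0.16). Snord47 is one of the snoRNAs encoded in Gas5 introns. Where in the Gas5 transcript each probe set lies was not analysed here.

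As a description, the range of these differences was set beside that of other genes with as many single-gene probe sets. Over its 3 U74Av2 probe sets, Gas5 spanned 1.63 log2 units, and 7 of 152 genes with 3 probe sets, Gas5 included, spanned at least as much (median range 0.45). Over its 4 single-gene sets on MOE430v2, Gas5 spanned 1.11, and 153 of 701 genes with 4 spanned at least as much (median range 0.65). The median Gas5 difference was -0.92 on U74Av2 and -0.22 on MOE430v2, or -0.44 on MOE430v2 without the set that also names Snord47. Without Foxa2 null pool 2, the median was -0.53 on U74Av2 and -0.05 on MOE430v2.

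The differences between pools of 1 genotype do not enter the contrast by which the genes were chosen. On MOE430v2 all 5 Gas5 probe sets read lower in Foxa2 null pool 2 than in pool 1, by between 0.08 and 0.42. In wild-type, 4 of the 5 read lower in pool 2, by between 0.15 and 0.54, and 1449410_a_at differed by less than 0.01. The U74Av2 sets were mixed in sign, with 98531_g_at slightly higher in pool 2 of both genotypes.

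Snhg1, known for introns that carry U22 and other box C/D snoRNAs, was higher in Foxa2 null on all 6 of its probe sets, with no overlap between the groups on any of them. On U74Av2 the Snhg1 set 97838_at read 9.76 and 9.91 in Foxa2 null and 9.25 and 9.55 in wild-type, a difference of 0.43 (SE 0.16). On MOE430v2 the largest Snhg1 difference was that of 1437658_a_at, with 11.14 and 10.73 in Foxa2 null and 10.56 and 10.08 in wild-type (0.62, SE 0.19), followed by 1454703_x_at, with 11.45 and 11.49 in Foxa2 null and 11.13 and 10.71 in wild-type (0.55, SE 0.15). In these 2 sets the wild-type pools themselves differed by 0.48 and 0.42. By its suffix, 1454703_x_at may bind unrelated transcripts. The Snhg1 set with the closest pools, 1433674_a_at, read 12.88 and 12.90 in Foxa2 null and 12.66 and 12.54 in wild-type (0.29, SE 0.09). The remaining Snhg1 sets, 1433675_at and 1439399_a_at, each had a difference of 0.13 (SE 0.11 and 0.10), and their groups were only 0.01 and 0.02 apart. The 5 Snhg1 differences on MOE430v2 spanned 0.49, and 245 of 310 genes with 5 probe sets spanned at least as much.

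Snhg5, whose human counterpart hosts the U50 snoRNA, was also higher in Foxa2 null on all 4 of its probe sets. On U74Av2, 104089_at read 8.28 and 8.20 in Foxa2 null and 7.81 and 8.02 in wild-type (0.33, SE 0.17). On MOE430v2, the Snhg5 set 1428529_at read 11.87 and 12.04 in Foxa2 null and 11.73 and 11.61 in wild-type (0.28, SE 0.11). The set 1432738_at read 7.49 and 7.81 in Foxa2 null and 6.95 and 7.08 in wild-type (0.64, SE 0.35). The set 1432737_at was below the low-signal filter and was not fitted. Its deposited signals were 76.11 and 153.02 in Foxa2 null and 35.03 and 24.05 in wild-type, and its log2 difference was 1.92.

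Snhg12, which carries Snora16a, Snora44, Snora61 and Snord99, had 1 probe set, on MOE430v2. It read 10.85 and 10.89 in Foxa2 null and 10.58 and 10.52 in wild-type, a difference of 0.32 (SE 0.12). The pools of each genotype lay within 0.07 of each other and the groups 0.26 apart. Snhg12, Snhg1 and Snhg5 were thus the hosts with higher signal in Foxa2 null on all of their probe sets.

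Snhg6, the host of Snord87, was lower in Foxa2 null by a small amount on both platforms. On MOE430v2, 1436506_a_at read 10.92 and 11.18 in Foxa2 null and 11.29 and 11.46 in wild-type (-0.32, SE 0.13), with no overlap. On U74Av2 the groups of Snhg6 overlapped on 96156_at, with 6.63 and 6.97 in Foxa2 null and 6.87 and 7.14 in wild-type (-0.21, SE 0.22). The second U74Av2 set of Snhg6, 161635_f_at, was below the filter, at 2.89 and 3.63 in Foxa2 null and 4.13 and 2.79 in wild-type.

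Snhg8, the host of Snora24, was measured only on MOE430v2. Its set 1435524_at read 10.99 and 11.07 in Foxa2 null and 11.16 and 11.28 in wild-type (-0.19, SE 0.12). The set 1447896_s_at, annotated to Snora24 and Snhg8 together, read 13.18 and 13.40 in Foxa2 null and 13.41 and 13.61 in wild-type (-0.22, SE 0.11). Both Snhg8 sets put the Foxa2 null arrays below the wild-type arrays, by margins of 0.09 and 0.01, where 21.8% of all tested sets did so. For Snhg8 the set that includes the snoRNA had the same sign as the host's own set, whereas for Gas5 the set that includes Snord47 had the opposite sign to 3 of the 4 Gas5 sets.

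Snhg3, the host of the U17 snoRNAs (Snora73a and Snora73b), showed the smallest difference of the 7 genes, -0.06 (SE 0.16). Its single set 1433789_at read 10.73 and 11.20 in Foxa2 null and 10.99 and 11.06 in wild-type, so both wild-type arrays lay between the Foxa2 null arrays. Snhg3 and Snhg12 are close neighbours on chromosome 4, 40909 bases apart.

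**Figure D2:**
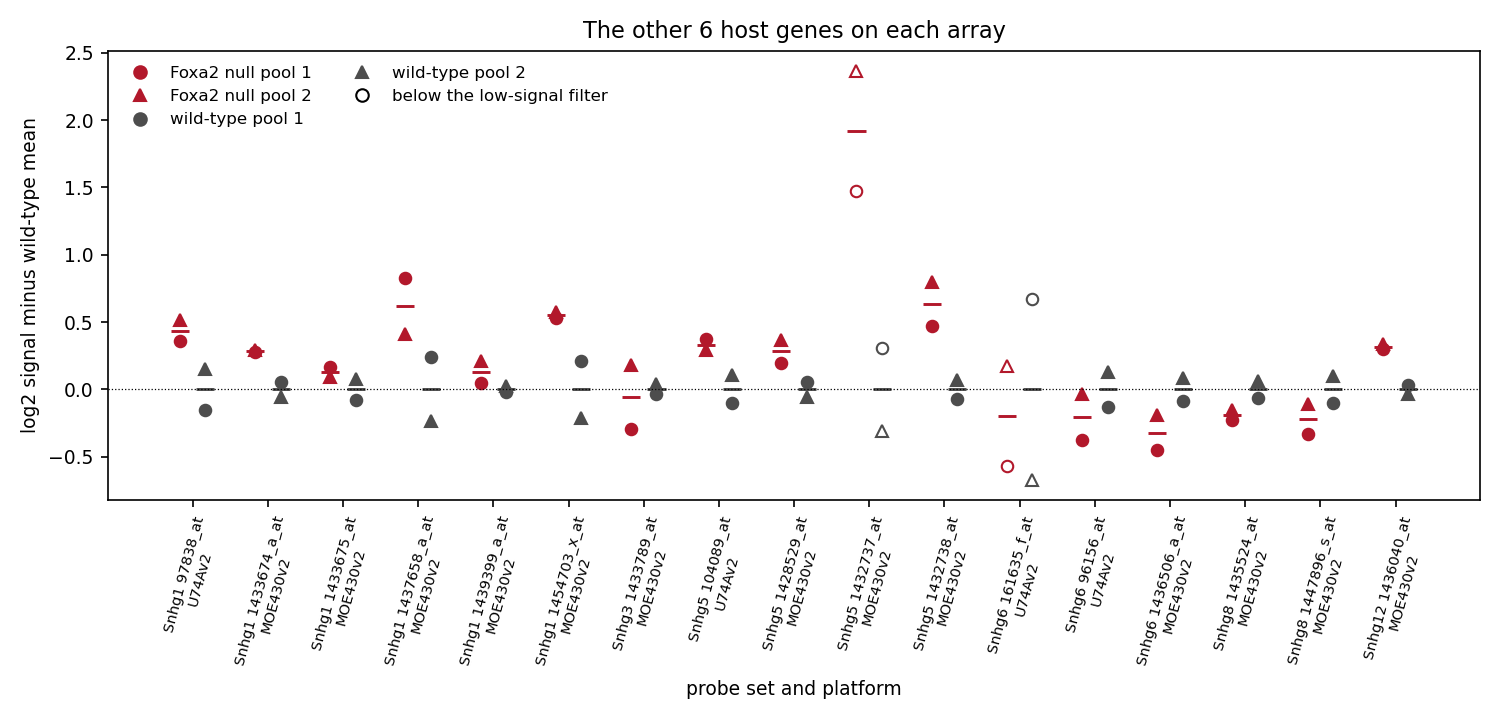
Signal of the 17 probe sets of Snhg1, Snhg3, Snhg5, Snhg6, Snhg8 and Snhg12 on each array (log2, relative to the wild-type mean of the same probe set), with Foxa2 null pools in red to the left of wild-type pools in grey, short lines at the mean of 2 pools, and open symbols for sets below the low-signal filter. Snhg1, Snhg5 and Snhg12 sit above 0 in Foxa2 null, Snhg6 and Snhg8 mostly below it, and Snhg3 on both sides.

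Of the 25 probe sets, 6 of 7 on U74Av2 and 17 of 18 on MOE430v2 passed the low-signal filter. At an adjusted p under 0.05 over all probe sets, 1 of the 6 U74Av2 sets was called lower (Gas5 98531_g_at), where 0.173% of all tested sets were. None of the 17 MOE430v2 sets was called by limma, where 0.244% of all tested sets were called lower and 0.19% higher; 9 of the 17 had an unadjusted p under 0.05, where 12.1% of all did. Both Foxa2 null arrays lay below both wild-type arrays in 3 of 6 sets on U74Av2, all of them Gas5, where 21.4% of all tested sets did so, and above in 2, where 18.6% did. On MOE430v2 the counts were 5 below, where 21.8% of all tested sets did so, and 10 above, where 21.5% did. Since this contrast was used to choose the genes, these shares are given as a description and nothing is read from them.

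**Figure D3:**
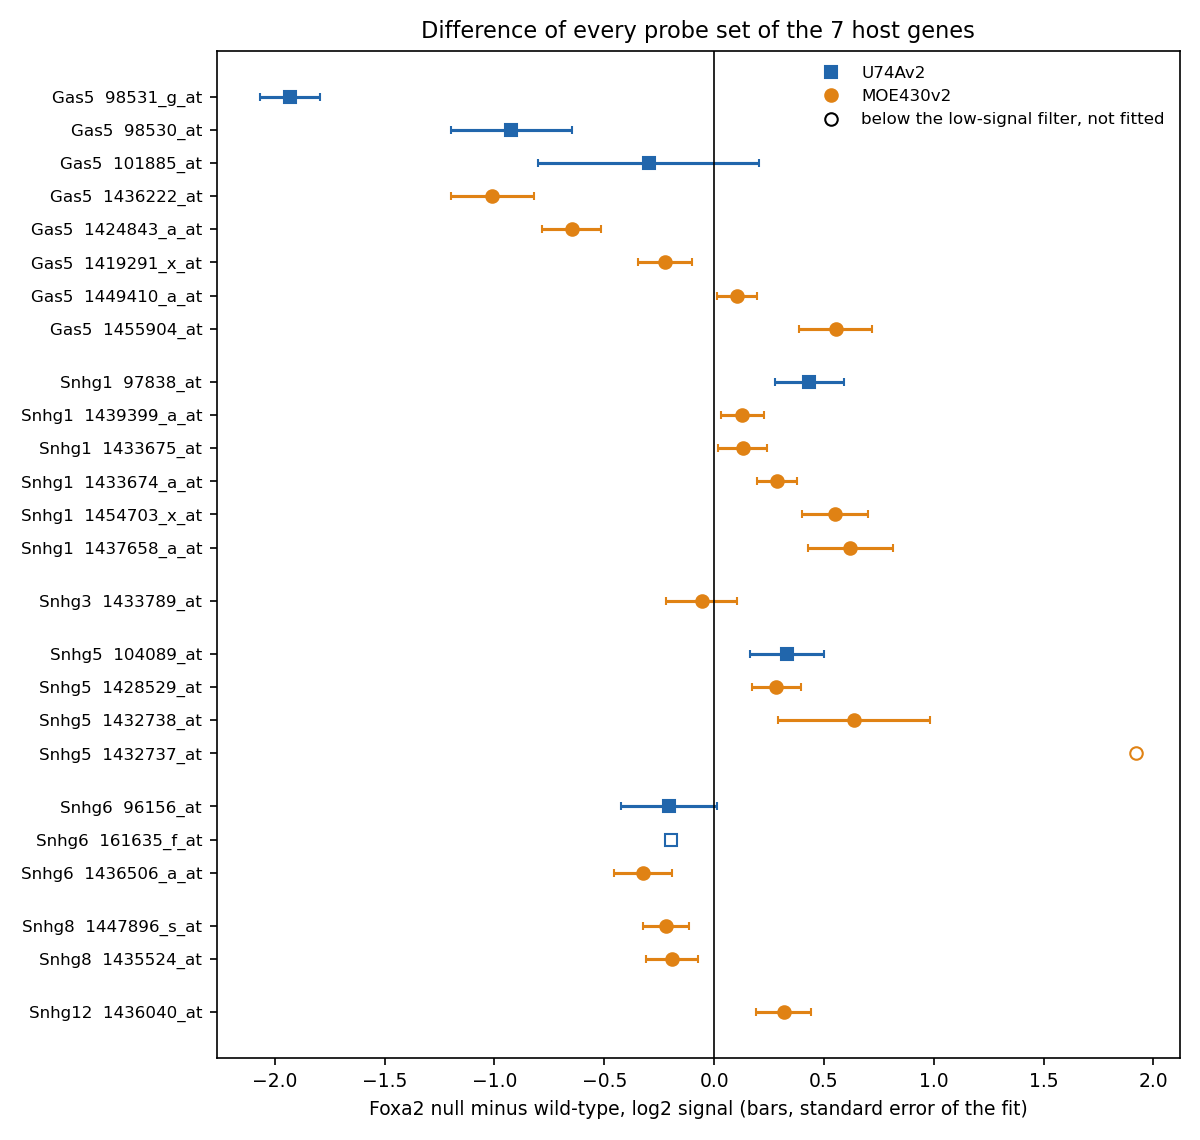
Foxa2 null minus wild-type difference (log2, x axis) of each of the 25 probe sets, grouped by gene, with U74Av2 as squares, MOE430v2 as circles, bars for the standard error of the fit and open symbols without bars for the 2 sets below the filter. Gas5 spreads from -1.93 to 0.55, whereas the sets of Snhg1 and Snhg5 lie on the positive side and those of Snhg6 and Snhg8 on the negative side.

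Without Gas5, the median difference of the host probe sets was 0.33 over 3 sets on U74Av2 and 0.21 over 12 on MOE430v2, where the medians of all tested sets were -0.02 and 0.00. For these hosts on MOE430v2, the median absolute difference between pools of 1 genotype was 0.17 in Foxa2 null and 0.13 in wild-type, against 0.26 and 0.27 over all tested sets. On U74Av2 these medians were 0.16 in Foxa2 null and 0.26 in wild-type for the 3 sets, against 0.24 in each genotype over all sets. The 12 MOE430v2 sets were bright, at percentiles of mean signal from 90.3 to 98.9, apart from Snhg5 1432738_at at 53.6. Sets of like brightness were not compared, so the closeness of the pools is not read as a trait of the hosts.

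The probe sets with the most similar profile over the 4 arrays were looked up by the Euclidean distance of centred log2 signals. Nearest to Gas5 98531_g_at on U74Av2 were Esr1 (distance 0.13), the estrogen receptor alpha gene, Slc1a5 (0.25), a transporter of neutral amino acids such as glutamine, Pts (0.25), an enzyme of tetrahydrobiopterin synthesis, Cer1 (0.32), which codes for a secreted inhibitor of Nodal, and Foxk1 (0.34), a forkhead transcription factor. Their differences ran from -1.65 for Foxk1 to -2.06 for Slc1a5. Esr1 was dim, near the low-signal filter, at 3.20 and 3.25 in Foxa2 null and 5.16 and 5.09 in wild-type (SE 0.47). Foxk1 was as dim, at 3.41 and 3.32 in Foxa2 null and 4.88 and 5.15 in wild-type (SE 0.47). For Gas5 1436222_at on MOE430v2, the nearest were Lrig1 (0.10), Sass6 (0.11), Zfp40 (0.12), Epm2aip1 (0.14) and Cdca7 (0.14), with differences from -0.94 for Sass6 to -1.05 for Epm2aip1. For Gas5 1419291_x_at, the Gas5 set of highest mean signal on MOE430v2, they were Denr, Exosc4, Edem3, Add3 and 4930453N24Rik, at distances of 0.02 to 0.04 and with differences from -0.19 for Add3 to -0.24 for Exosc4. The 3 Gas5 sets had no nearest gene in common, but with short lists and such unlike differences they could hardly share one, so nothing is read from this. With 4 arrays, many genes can be this close to any profile.

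Gas5 shares 264 bases with Zbtb37, which has its promoter on the opposite strand. Zbtb37 had a tested probe set on U74Av2, at 5.21 and 5.26 in Foxa2 null and 5.15 and 5.05 in wild-type (0.14, SE 0.32). Signal from overlapping exons was not separated here. The nearest protein-coding neighbours that do not overlap were added after the host values had been seen. Only some of them are named here, so nothing is read from their signs. The neighbours of Gas5, tested only on MOE430v2, were Serpinc1 (-0.37, SE 0.35) and Cenpl (0.13, SE 0.25). Those of Snhg12, also tested only there, were Rab42 (-0.56, SE 0.52) and Trnau1ap (0.11, SE 0.15). Slc3a2, the heavy chain of amino acid transporters, lies 118 bases from Snhg1 and read 10.15 and 10.07 in Foxa2 null and 9.77 in both wild-type pools on U74Av2 (0.34, SE 0.13), with 0.23 (SE 0.10) on MOE430v2, the same sign as Snhg1. Prss12, a serine protease gene 950 bases from Snhg8, had differences of 0.36 (SE 0.20) on U74Av2 and 0.62 (SE 0.18) on MOE430v2, the opposite sign to Snhg8. Rcc1, the nucleotide exchange factor of Ran, lies between Snhg12 and Snhg3 and had 0.40 (SE 0.25) on U74Av2 and 0.30 (SE 0.15) on MOE430v2. Wdr74, on the other side of Snhg1, had 0.13 (SE 0.16) on U74Av2 and 0.02 (SE 0.11) on MOE430v2. Sgk3, a kinase gene 39455 bases from Snhg6, had 0.77 (SE 0.20) on MOE430v2, the opposite sign to Snhg6. None of the neighbours passed the test, and the smallest adjusted p by limma was that of Sgk3 (0.173).

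Other noncoding hosts were mixed. Of 14 listed, 11 were tested on MOE430v2, with 4 differences below 0 and 7 above, a median of 0.27 and no call. The lowest was that of Snhg4, at 10.09 and 10.38 in Foxa2 null and 10.63 and 10.79 in wild-type (-0.48, SE 0.15). The highest was that of Rian, an imprinted noncoding host, at 11.66 and 9.37 in Foxa2 null and 9.06 and 9.48 in wild-type (1.24, SE 0.57), where pool 1 of Foxa2 null stood alone. On U74Av2 the 2 tested genes were Meg3 (0.38, SE 0.29) and Snhg11 (0.72, SE 0.51).

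Protein-coding hosts, many but not all of them translation and ribosome genes, carry snoRNAs in their introns and centred near 0. Their medians were 0.03 over 20 genes on U74Av2 and 0.02 over 25 on MOE430v2, with no call. The extremes on U74Av2 were Cwf19l1, at 4.85 and 5.77 in Foxa2 null and 6.71 and 7.04 in wild-type (-1.57, SE 0.33), and Tbrg4 (0.73, SE 0.29). On MOE430v2, from the same extracts, Cwf19l1 had a difference of 0.02 (SE 0.18). The MOE430v2 extremes were Taf1d (-0.08, SE 0.18) and Prrc2a (1.03, SE 0.25).

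The proteins that bind snoRNAs differed little. The snoRNP core had medians of 0.11 over 6 genes on U74Av2 and 0.00 over 7 on MOE430v2, with no call and differences between -0.21 and 0.19 on both arrays. Fibrillarin (Fbl), the methyltransferase of box C/D particles, was the lowest on U74Av2 (-0.20, SE 0.12) and Nop58 the lowest on MOE430v2 (-0.21, SE 0.11), and the highest were Nhp2 on U74Av2 (0.19, SE 0.17) and Gar1 on MOE430v2 (0.19, SE 0.10). Among assembly factors the medians were 0.02 over 8 genes on U74Av2 and 0.02 over 12 on MOE430v2. The single call of all these lists was Naf1, an assembly factor of box H/ACA particles, which was higher in Foxa2 null on MOE430v2. Naf1 read 12.22 and 12.42 in Foxa2 null and 11.61 and 11.48 in wild-type (0.77, SE 0.11, adjusted p = 0.029 by limma). Over all tested sets, 0.435% were called in either direction on MOE430v2 and 0.276% on U74Av2. Nothing is therefore read from 1 call, or from no call, in lists this small. Naf1 lost the call without wild-type pool 1 (adjusted p = 0.0738), without wild-type pool 2 (0.144) and without Foxa2 null pool 2 (0.0627), as well as with no filter on low signal (0.0803) and with no intensity trend in the fit (0.464), and its difference stayed between 0.67 and 0.87 when any pool was left out. The other extremes of that list were Shq1 on MOE430v2 (-0.43, SE 0.27), and Coil (-0.06, SE 0.19) and Nolc1 (0.33, SE 0.20) on U74Av2.

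Genes of the pathways that act on host transcripts gave no call. For nonsense-mediated decay, which removes spliced Gas5, the medians were 0.11 over 2 genes on U74Av2 (Rbm8a -0.03, Smg5 0.26) and -0.07 over 9 on MOE430v2, from -0.20 for Smg1 to 0.10 for Smg6. For regulators of mTOR signalling and of TOP mRNA translation they were -0.09 over 12 genes on U74Av2, from -1.08 for Rps6kb2 to 0.65 for Eif4ebp1, and -0.01 over 15 on MOE430v2, from -0.25 for Mlst8 to 0.41 for Eif4ebp1. Rps6kb2 read 4.49 and 5.87 in Foxa2 null and 6.35 and 6.17 in wild-type on U74Av2 (SE 0.42). From the same extracts it had -0.01 (SE 0.22) on MOE430v2. Eif4ebp1, an inhibitor of cap-dependent translation and the highest of this list on both arrays, read 8.94 and 8.83 in Foxa2 null and 8.26 and 8.23 in wild-type on U74Av2 (SE 0.15), with no overlap on either array.

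The other genes named for growth arrest centred near 0. Their medians were -0.11 over 5 genes on U74Av2, from -0.79 for Gas2 to 0.33 for Gas6, and -0.02 over 7 on MOE430v2, from -0.40 for Gas7 to 0.98 for Ddit3, with no call. On MOE430v2 the SE was 0.61 for Gas7 and 1.03 for Ddit3, larger than their differences, and Gas2 had 0.15 (SE 0.29). The medians of the glucocorticoid receptor and its co-chaperones were 0.07 over 5 genes on U74Av2, from -0.02 for Hsp90aa1 to 0.55 for Sgk1, and 0.06 over 6 on MOE430v2, from -0.21 for the receptor gene Nr3c1 to 0.29 for Sgk1, with no call either.

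**Figure D4:**
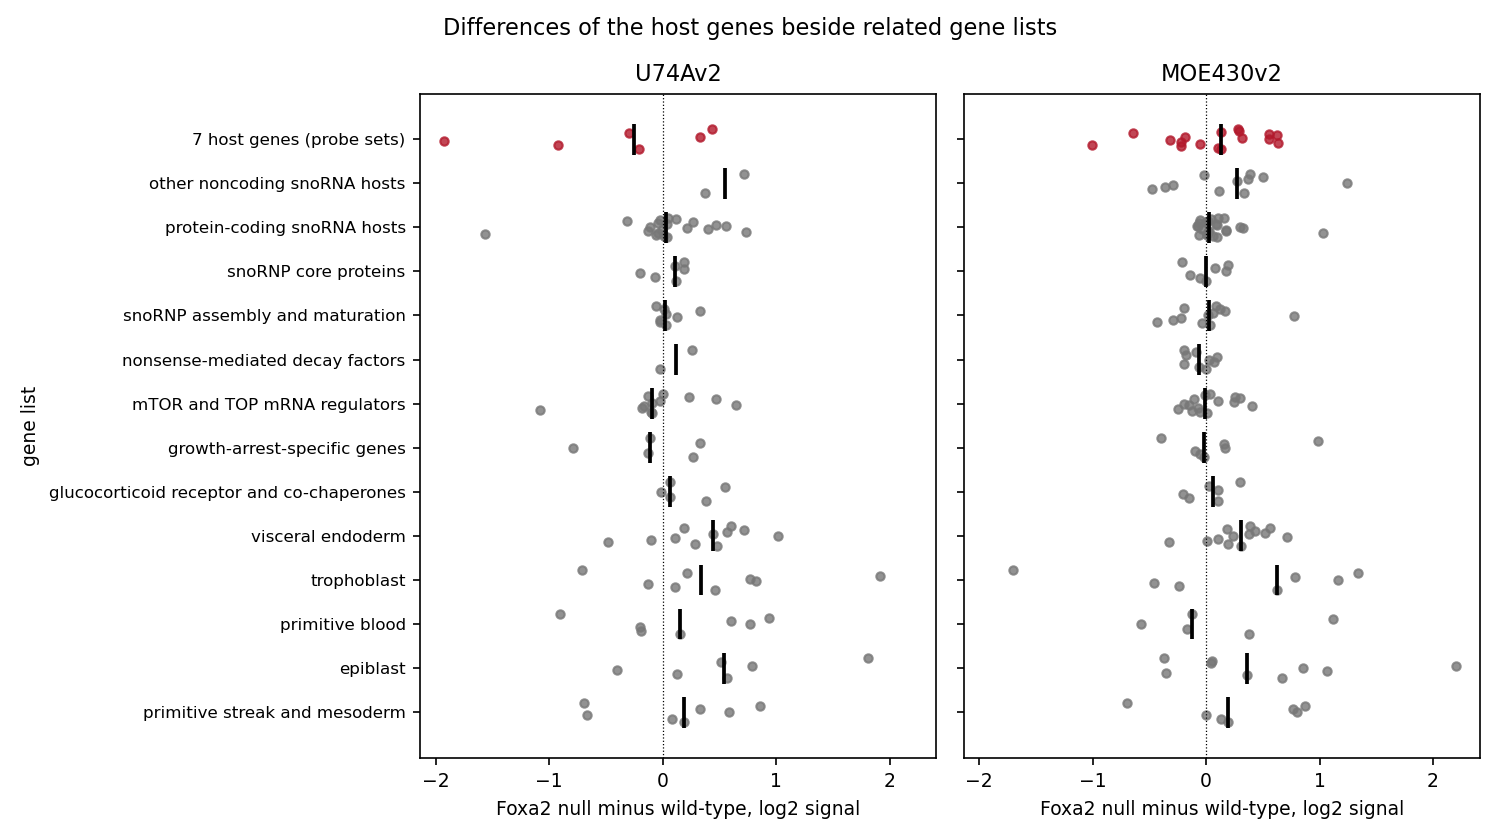
Foxa2 null minus wild-type differences (log2, x axis) of the host gene probe sets in red and of 1 probe set per gene of each other list in grey, with U74Av2 on the left, MOE430v2 on the right and black lines at medians. The snoRNP and protein-coding host lists gather near 0, and the medians of the visceral endoderm and epiblast lists lie further to the right.

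Markers of other cell types also had differences, most of them above 0. Of visceral endoderm markers, 9 of 11 on U74Av2 and 12 of 13 on MOE430v2 had differences above 0 (medians 0.45 and 0.31). Their summed signal on U74Av2 was 11046.6 and 7303.2 in Foxa2 null and 7588.4 and 7236.7 in wild-type, and on MOE430v2 it was 90652.5 and 72202.3 in Foxa2 null and 64564.6 and 71772.9 in wild-type, so pool 1 of Foxa2 null was the highest on both arrays. The extremes were Afp (-0.48) and Mttp (1.02) on U74Av2 and Lrp2 (-0.32) and Apob (0.71) on MOE430v2. Afp had the opposite sign on MOE430v2, at 13.41 and 13.23 in Foxa2 null and 12.90 and 12.88 in wild-type (0.43, SE 0.09). Without Foxa2 null pool 1, the visceral endoderm medians were 0.10 on U74Av2 and 0.14 on MOE430v2.

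Trophoblast markers were above 0 in 6 of 8 genes on U74Av2 and 4 of 7 on MOE430v2 (medians 0.34 and 0.62), from Krt7 (-0.71 and -1.70) to Eomes (1.92 and 1.34), and their sums were 1069.4 and 1234 in Foxa2 null and 813.8 and 734.5 in wild-type on U74Av2, and 6475 and 7591 in Foxa2 null and 4946 and 5086 in wild-type on MOE430v2. The SE was 0.41 and 0.84 for Krt7 and 0.56 and 0.43 for Eomes on U74Av2 and MOE430v2. Without wild-type pool 2, the trophoblast medians were 0.06 on U74Av2 and -0.16 on MOE430v2. The extraembryonic regions had been removed by dissection. Whether the signal of these listed genes came from trophoblast or from cells of the embryo proper was not tested. Epiblast markers were above 0 in 5 of 6 and 7 of 9 genes (medians 0.54 and 0.36), from Sox2 (-0.40 and -0.37) to Tdgf1 (1.81 and 2.21), with sums of 2386.2 and 3366.5 in Foxa2 null and 2427.1 and 2727.5 in wild-type on U74Av2. Primitive streak and mesoderm markers were above 0 in 5 of 7 genes on each array (medians 0.19 and 0.19), from Fgf8 (-0.69) to Mesp1 (0.86) on U74Av2 and from Tbx6 (-0.70) to Lhx1 (0.87) on MOE430v2, with sums of 683.1 and 1084.6 in Foxa2 null and 737.6 and 884.5 in wild-type on U74Av2. Primitive blood markers were above 0 in 4 of 7 and 2 of 5 genes (medians 0.15 and -0.12), from Hbb-y (-0.91) to Klf1 (0.93) on U74Av2 and from Hbb-bh1 (-0.57) to Hba-x (1.12) on MOE430v2, with sums of 633.2 and 315.5 in Foxa2 null and 355.7 and 563 in wild-type on U74Av2. For the MOE430v2 blood extremes, the SE was 1.04 for Hbb-bh1 and 1.33 for Hba-x, larger than their differences. No listed marker passed the test and none of those tested was listed at 0. Leaving out 1 pool at a time, the epiblast medians lay between 0.17 and 0.82 on U74Av2 and between 0.13 and 0.60 on MOE430v2, those of primitive streak and mesoderm between -0.05 and 0.42 and between 0.09 and 0.57, and those of primitive blood between -0.69 and 0.81 and between -0.61 and 0.68. The part of these cell types in the host gene differences was not tested. Foxa2 itself read 6.39 and 6.55 in Foxa2 null and 7.37 and 8.08 in wild-type on U74Av2 (-1.25, SE 0.26), and 8.96 and 9.06 in Foxa2 null and 9.62 and 10.17 in wild-type on MOE430v2 (-0.88, SE 0.21). The groups did not overlap for Foxa2, though neither set passed the adjusted test (adjusted p = 0.13 and 0.141 by limma).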

How the data were processed

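The authors deposited MAS5 signals, that is 1 linear intensity for each probe set and array, after scaling every array. The mean after trimming 2% at each end was 150.09 on all U74Av2 arrays and 500.00 on all MOE430v2 arrays, and array medians lay between 48.15 and 52.8 (U74Av2) or 155 and 165 (MOE430v2). The 8 arrays limit the precision, and no depth applies. Signals were taken to log2 (4 zeros set to 0.1), with cyclic loess between the MOE430v2 arrays, as the methods describe a loess step that the deposited values lack. Control probe sets and the lowest 30% by mean signal were left out, leaving 8695 and 31526. Foxa2 null minus wild-type was fitted with limma 3.58.1 in R 4.3.3 (lmFit, eBayes with a trend, Benjamini-Hochberg over all tested sets, 0.05). The procedure was run on simulated data with large changes only, which does not show how it calls smaller ones. Samples were grouped by genotype as labelled. The labels number the pools as separate, and p-values measure only the spread between these pools.

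Of the non-control probe sets, 45778 name 1 gene, 1328 several and 10353 none, after updating symbols to RefSeq. The 7 genes and all lists were chosen with earlier results of these data known. Named were all probe sets of the 7 genes, the 5 nearest profiles per Gas5 set chosen by brightness or most negative difference, the called and extreme genes of each list (1 single-gene set per gene, the brightest), and Foxa2. Neighbouring and overlapping genes were added later. Promoter windows are from RefSeq, GRCm38.p6. Alternatives were quantile normalization, median centring, the other loess choice, no filter, an offset of 16, no trend, a replicate block and each pool left out, where the lone pool was assumed to vary like the other genotype.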

Additional observations from a re-analysis of the deposited data

How the results depend on the processing

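Among the differences of the host probe sets, that of Snhg3 changed sign, to 0.18 without Foxa2 null pool 1. The block, the trend and the filter leave each difference as it is, by construction. No host set was called without the intensity trend, and with a replicate block 2 were called on U74Av2 and 5 on MOE430v2, where Gas5 1436222_at was also called without Foxa2 null pool 1. These calls are a description, since the genes were chosen on the same contrast. List medians kept their sign in 302 of 336 alternatives, and 40 moved by more than the spread between replicates. The block and the trend cannot change a list median, so those of the 336 kept their sign by construction.

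The counts of called sets were 15 lower and 9 higher on U74Av2 and 77 lower and 60 higher on MOE430v2. They became 3, 0, 27 and 16 without the filter, and 0 in each without the trend, with 786 and 3068 sets then at an unadjusted p under 0.05. Leaving out 1 pool gave 11 to 29, 2 to 19, 14 to 155 and 18 to 84. With the replicate number as a block they were 129, 163, 799 and 844. Samples of the same number correlated at 0.11 on U74Av2 and 0.09 on MOE430v2 in their deviations from group means, and only 2 pairs exist, so the numbers were not taken to pair the pools.

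The median difference of the host sets on U74Av2, -0.25, was -0.18 after quantile normalization, -0.21 after median centring, -0.19 after cyclic loess and -0.17 with the offset. Without 1 pool it lay between -0.29 and -0.21 on U74Av2, where it was -0.25, and between 0.10 and 0.18 on MOE430v2, where it was 0.13. Without Gas5 the MOE430v2 median of 0.21 lay between 0.18 and 0.25. The Gas5 median lay between -1.31 and -0.53 on U74Av2 and between -0.39 and -0.05 on MOE430v2, in both cases with the lower value when pool 1 of the Foxa2 null embryos was left out and the higher when pool 2 was.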
